A study of Mus musculus with 16 samples.

Results

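The ileal expression of 10 chemokines of the gut wall and its lymphoid tissue was followed in diabetic mice. The genes were taken by gene name from the deposited count tables as Ccl20, Ccl25, Ccl28, Ccl6, Ccl8, Ccl19, Cxcl13, Cxcl12, Cxcl9 and Cxcl10. All 10 were listed among the 41740 genes of each table, and 9 of them were among the 15267 genes that passed the filter on low counts. Ccl19 did not pass, and its values are given as levels.

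The mice were male STAM mice, a model of diabetes with steatohepatitis, on a C57BL/6J background and 20 weeks old. All of them carried floxed insulin receptor alleles (InsR-flox), were given streptozotocin (200 µg) when 2 days old, and ate a high-fat diet from week 4. Control-STAM-nonINS mice (n = 4, the untreated controls) had no Cre and no insulin. The paper states that normal saline was given to control mice, and untreated here means not given insulin. Control-STAM-INS mice (n = 6, the insulin-treated controls) had no Cre and received insulin degludec from week 6, with 2 injections a day of up to 12 U/kg. ieIRKO-STAM-INS mice (n = 6; Vilin-Cre(+); InsR-flox in the labels) received the same insulin, with Cre driven by the Villin promoter, which is active in the intestinal epithelium and not in the stromal, vascular or immune cells of the wall. RNA came from the whole ileal wall, with 1 library per mouse, so that fewer cells of a type and less RNA per cell cannot be told apart.

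Chemokines are small secreted proteins that direct the movement of leukocytes through G protein-coupled receptors. In the small intestine, the epithelium makes CCL25 and CCL28, which draw CCR9-bearing T cells and CCR10-bearing plasma cells into the lamina propria, and the epithelium over lymphoid follicles makes CCL20, which draws CCR6-bearing cells. Stromal cells of Peyer's patches and isolated lymphoid follicles make CXCL13, which holds CXCR5-bearing B cells in follicles, and CCL19, which draws CCR7-bearing T cells and dendritic cells, while interferon-gamma induces CXCL9 and CXCL10, the ligands of CXCR3.

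Between 13288018 and 22215382 reads were counted per library. The ileal bile acid binding protein gene Fabp6 was at 3265 to 7844 CPM (reads scaled to the TMM size of the library), which fits the tissue on the labels. Insr, the targeted gene, stood at 67.2 ± 13.4 CPM (n = 6) in the libraries labelled ieIRKO-STAM-INS and was thus no lower than in Control-STAM-INS (62.7 ± 10.1 CPM, n = 6), with a log2 fold change of 0.10 (SE 0.13, adjusted p = 0.805 in edgeR). Insr was lower in both of these groups than in the untreated controls (105 ± 12 CPM, n = 4), with log2 fold changes of -0.65 (adjusted p = 0.00582) for ieIRKO-STAM-INS and -0.75 (adjusted p = 0.00275) for the insulin-treated controls. Counts per gene in whole-wall RNA measure neither the epithelium by itself nor single exons, so loss of Insr in the epithelium was not tested. In the libraries labelled ieIRKO-STAM-INS replicates 2 and 3, the summed level of 10 B cell genes was 616 and 348 CPM, against 24.8 to 69.4 CPM in the other 14. The calls in the third comparison were repeated without these 2 libraries (for genes other than the members, an alternative added after the data were seen), and values without them are given where a call was lost. Values are means ± SD.

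The promoters of 4 members on whose levels the results mainly turn, the NF-kB and interferon-induced and the follicle chemokines, are shown as the 250 bases before the RefSeq start site (GRCm38.p6, 5′ to 3′ on the strand of the gene). Capitals mark matches to 2 motifs searched on both strands, the kappaB motif bound by NF-kB and the ISRE core GAAANNGAAA bound by interferon regulatory factors.
Ccl20: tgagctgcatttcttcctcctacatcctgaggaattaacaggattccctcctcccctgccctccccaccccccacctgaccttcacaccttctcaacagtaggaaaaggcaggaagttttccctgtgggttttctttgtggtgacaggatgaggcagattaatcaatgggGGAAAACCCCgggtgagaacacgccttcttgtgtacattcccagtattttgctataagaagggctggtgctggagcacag
Cxcl10: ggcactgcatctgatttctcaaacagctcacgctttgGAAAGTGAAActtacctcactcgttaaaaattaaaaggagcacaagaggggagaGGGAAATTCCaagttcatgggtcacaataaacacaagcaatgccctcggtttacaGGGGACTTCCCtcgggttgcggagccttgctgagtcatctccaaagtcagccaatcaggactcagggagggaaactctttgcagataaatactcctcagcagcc
Cxcl9: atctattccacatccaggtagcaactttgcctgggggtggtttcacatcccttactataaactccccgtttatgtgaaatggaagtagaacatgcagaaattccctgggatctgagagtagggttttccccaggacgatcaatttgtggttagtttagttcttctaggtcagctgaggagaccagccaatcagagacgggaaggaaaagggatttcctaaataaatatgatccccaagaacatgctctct
Cxcl13: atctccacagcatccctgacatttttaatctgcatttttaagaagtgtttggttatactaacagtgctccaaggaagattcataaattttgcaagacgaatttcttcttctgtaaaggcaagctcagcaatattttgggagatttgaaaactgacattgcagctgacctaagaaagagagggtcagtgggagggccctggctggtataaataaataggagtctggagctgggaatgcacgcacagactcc
The windows lie at chr1:83116516-83116765 (plus strand) for Ccl20, chr5:92348890-92349139 (minus strand) for Cxcl10, chr5:92328080-92328329 (minus strand) for Cxcl9 and chr5:95956689-95956938 (plus strand) for Cxcl13. Ccl20 held 1 kappaB match, which began 80 bases before the start. Cxcl10 held an ISRE core 213 bases before the start and 3 kappaB matches, of which the 2 nearer ones, at 104 and 103 bases, overlapped each other. No match to either motif was in the windows of Cxcl9 and Cxcl13. Of 32807 promoter windows of this length, 5.93% held a kappaB match and 2.97% an ISRE core. Over the windows of all 10 members, only those of Ccl20 and Cxcl10 held kappaB, and only those of Cxcl10 and Ccl19 held the ISRE core. The Ccl19 window is not shown, since most of it and its ISRE core lie inside the longer gene model of GENCODE. A match describes letters in the window and is not evidence of binding.

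To compare levels between the genes, CPM were divided by the length of the merged exons in kb. Ccl6, a chemokine that acts on CCR1, and Ccl25 were the most abundant per kb. Ccl6 stood at 78.8 ± 7.0, 96.0 ± 13.8 and 89.8 ± 15.3 CPM per kb in the untreated controls, the insulin-treated controls and ieIRKO-STAM-INS, and Ccl25 at 62.9 ± 5.5, 53.7 ± 5.9 and 53.3 ± 10.04. These 2 ranges did not overlap within any group, but their order depended on the length used, since with the longest transcript Ccl25 was at 156 to 184 CPM per kb on average and Ccl6 at 98.2 to 120. Ccl28 came next, at 11.5 ± 2.5, 14.9 ± 1.5 and 13.8 ± 2.9 CPM per kb. Cxcl13, Cxcl12, Ccl8 and Ccl20 had lower means in the untreated controls, between 1.74 and 8.92 CPM per kb. There the range of Cxcl13 overlapped that of Ccl28, and the ranges of Cxcl12 and Ccl8 overlapped each other. Cxcl9, Ccl19 and Cxcl10 were the least abundant there, at 0.938, 0.556 and 0.529 CPM per kb. The ranges of Cxcl9 and Ccl19 overlapped, and Ccl19 and Cxcl10 did not differ beyond their spread. The 16 libraries held 4 to 68 counts of Ccl8 and 15 to 179 of Cxcl10, and Ccl19 had 3 counts or fewer in 6 libraries.

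**Figure D1:**
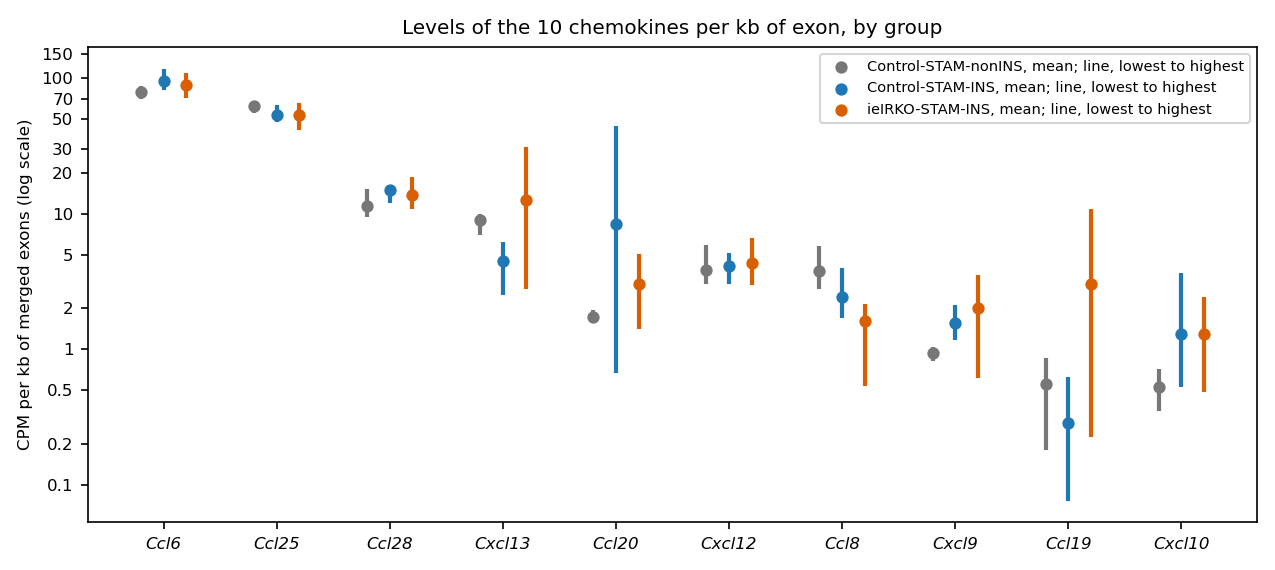
Level of each of the 10 chemokines in CPM per kb of merged exons, on a log axis, by group (4, 6 and 6 libraries). Points are group means and lines run from the lowest to the highest library. Ccl6 and Ccl25 lie above the rest, and the lines of Ccl20, Cxcl13 and Ccl19 are the longest.

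The first comparison asked what insulin did to these genes in mice with an intact insulin receptor. No member passed the test in edgeR (0 of 9 at an adjusted p under 0.05), where 10.5% of all tested genes did, or in DESeq2 (0 of the 8 with an adjusted p), where 13.6% did. At an unadjusted p under 0.05, 4 of 9 did (Ccl28, Ccl6, Cxcl9 and Cxcl10, all on the higher side), against 25.4% of all genes. The median log2 fold change was 0.29 over the 9 members and -0.0043 over all genes. Cxcl9 and Cxcl13 were the 2 of 9 members whose libraries did not overlap between the groups, in opposite directions, where 10.6% of all tested genes showed no overlap.

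The second comparison asked what the Cre genotype did under insulin. No member passed in edgeR (0 of 9), where 0.223% of all genes passed, or in DESeq2 (0 of 8), where 0.806% did, and only Cxcl13 had an unadjusted p under 0.05, against 11.3% of all genes. No member was free of overlap between the groups, against 0.845% of all genes. The third comparison set ieIRKO-STAM-INS against the untreated controls. In it Ccl8 fell and Cxcl9 rose (2 of 9), where 13.3% of all genes passed, and only Ccl8 was free of overlap, where 8.56% of all genes were. The comparisons share groups, so they are not independent of each other.

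**Figure D2:**
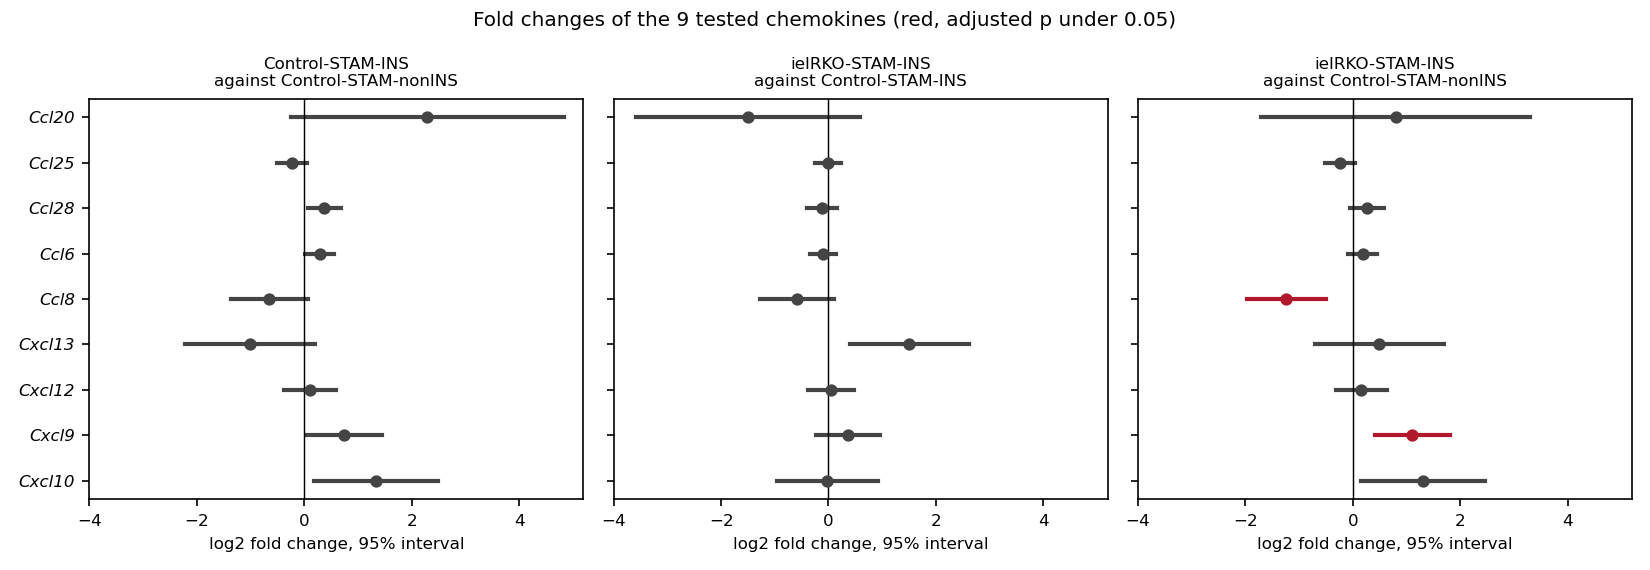
Log2 fold change of the 9 tested members with 95% intervals in the 3 comparisons, from edgeR. Red marks an adjusted p under 0.05, which held for Ccl8 (-1.24) and Cxcl9 (1.11) in the third comparison. The intervals of Ccl20, Cxcl13 and Cxcl10 are wide and those of Ccl25, Ccl28 and Ccl6 narrow.

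Among the epithelial chemokines, Ccl25 was steady. It was at 416, 499, 456 and 502 CPM in the untreated controls, at 354 to 471 CPM (median 391) in the insulin-treated controls and at 308 to 489 CPM (median 407) in ieIRKO-STAM-INS. The groups overlapped. The log2 fold change was -0.23 (95% interval -0.50 to 0.04) with insulin and -0.0094 (-0.25 to 0.24) between the insulin-treated groups. The 2 lowest Ccl25 values in ieIRKO-STAM-INS, 308 and 312 CPM, were in replicates 5 and 2. These replicates also had the lowest summed levels of 9 ileal epithelial genes in that group, 14284 and 17911 CPM against 20121 to 27591 in the other 4. Replicate 4 of that group had its highest Ccl25, 489 CPM, with an epithelial sum of 20121 CPM. Control-STAM-nonINS replicate 4 had the highest Ccl25 of all 16 libraries, 502 CPM, and the lowest epithelial sum of its group, 19154 CPM. The part of epithelial content in the Ccl25 level was not tested. The gene for its receptor, Ccr9, was at 3.48 ± 1.09 CPM in the untreated controls, 5.43 ± 1.16 CPM in the insulin-treated controls and 6.31 ± 1.66 CPM in ieIRKO-STAM-INS, and it rose in the third comparison (log2 fold change 0.86, SE 0.23, adjusted p = 0.0223 in edgeR). Without ieIRKO-STAM-INS replicates 2 and 3 the Ccr9 value was 0.81 and did not pass (adjusted p = 0.0561), nor did it with only the 2 groups in the fit (0.86, adjusted p = 0.0612).

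Ccl28 was at 73.5, 51.4, 52.1 and 45.5 CPM in the 4 untreated controls, at 58.1 to 77.5 CPM (median 73.8) in the insulin-treated controls and at 52.5 to 90.1 CPM (median 66.0) in ieIRKO-STAM-INS. The high first control brought the groups into overlap. The log2 fold change with insulin was 0.38 (SE 0.15, adjusted p = 0.118 in edgeR), and without Control-STAM-nonINS replicate 1 it was 0.54 and passed (adjusted p = 0.0419). Ccr10, the gene of the CCL28 receptor on plasma cells, rose in ieIRKO-STAM-INS against the untreated controls, from 2.26 ± 0.89 to 4.62 ± 2.04 CPM (log2 fold change 1.03, SE 0.31, adjusted p = 0.0349 in edgeR). With only the 2 groups in the fit, Ccr10 was at 1.03 and did not pass (adjusted p = 0.0857). Its highest value, 8.71 CPM, was in ieIRKO-STAM-INS replicate 5, which also had the highest sum of 7 plasma cell genes (3599 CPM, against 1277 to 2671 in the other 15 libraries). Of those 7 genes, 4 rose (Derl3, Jchain, Mzb1 and Tnfrsf17) and 1 fell (Sdc1) in that comparison, where 13.3% of all genes passed, with a median log2 fold change of 0.87. With only the 2 groups in the fit, where 6.92% of all genes passed, 3 rose, without Jchain, and 1 fell. Without ieIRKO-STAM-INS replicates 2 and 3, where 8.32% of all genes passed, 5 rose, with Xbp1 added, and 1 fell.

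The Ccl20 differences from Control-STAM-INS turned with a single library of that group. Ccl20 was at 2.28, 2.74, 2.24 and 2.62 CPM in the untreated controls. In Control-STAM-INS it was at 63.6 CPM in replicate 1 (1389 counts) and at 0.942 to 2.37 CPM in the other 5 (12 to 36 counts). In ieIRKO-STAM-INS it ranged from 1.99 to 7.11 CPM, with a median of 4.22. The first library was 8.94-fold above the next highest of all 16 and 40.7-fold above the median of the other 5 of its group. With it, the log2 fold change was 2.30 (SE 1.18, adjusted p = 0.245 in edgeR) with insulin and -1.50 (SE 0.97, adjusted p = 0.595) between the insulin-treated groups. Without it, both turned, to -0.59 (adjusted p = 0.336) and 1.39 (adjusted p = 0.157). The third comparison does not hold that library, and there Ccl20 was at 2.47 ± 0.25 CPM in the untreated controls and 4.31 ± 2.13 CPM in ieIRKO-STAM-INS, with a log2 fold change of 0.80 (SE 1.16, adjusted p = 0.691 in edgeR). With only those 2 groups in the fit, that SE was 0.35 and the adjusted p 0.184.

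In that library, Ccl20 exceeded the other 15 libraries by more than any other tested gene, by 3.14 on the log2 CPM scale. The next 2 genes, named here after their values were seen, were Tnfaip3, the gene of the NF-kB feedback inhibitor A20, at 173 CPM against at most 60.0 elsewhere, and Tnf, the gene of the cytokine TNF, at 6.41 CPM against at most 2.59. The inhibitor gene Nfkbia was also highest there, at 323 CPM, and so was Cxcl10, at 8.19 CPM. These genes, which were picked for being high in this library, are all known to be induced by NF-kB signalling. Of other genes that NF-kB is known to induce, Relb ranked 2 among the 16 libraries there, at 164 CPM against at most 168 elsewhere, and Ltb, Icam1 and Nfkb2 ranked lower. Zc3h12a and Irf1 were highest there, at 142 and 252 CPM. Whether NF-kB signalling was active in this library was not tested. The summed level of 7 genes of follicle-associated epithelium and M cells was 282 CPM there, within the 188 to 286 CPM of the other 5 libraries of its group, and its 10 B cell genes summed to 29.1 CPM, near the group's median of 29.9.

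**Figure D3:**
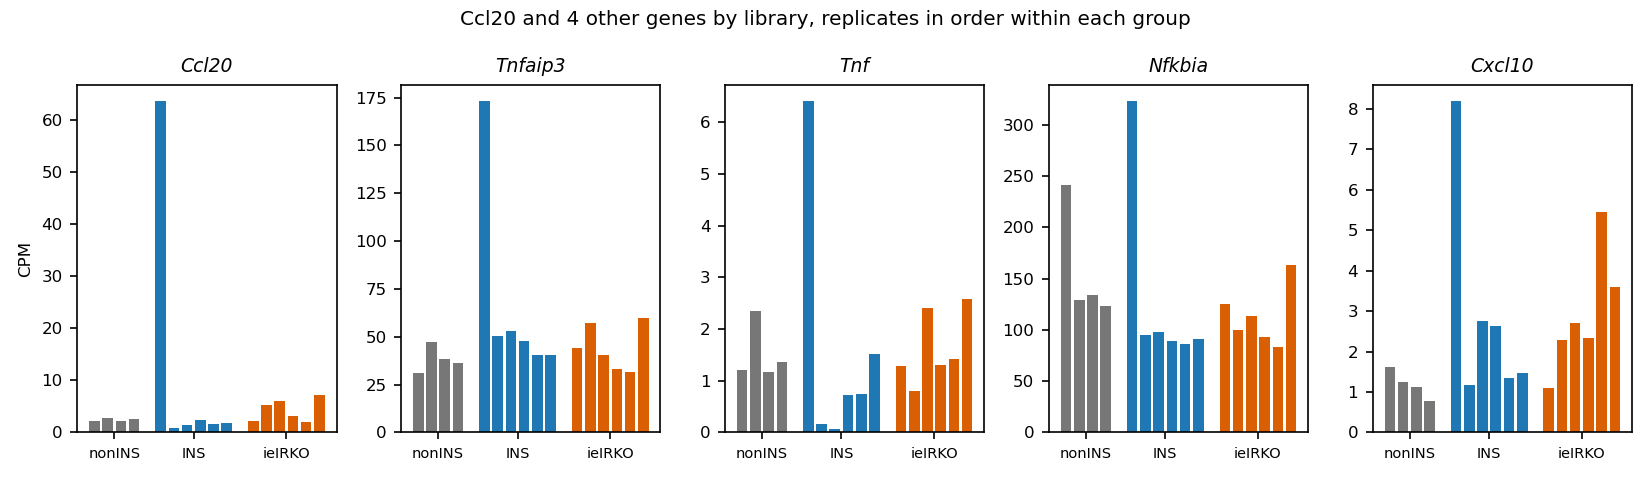
CPM of Ccl20, Tnfaip3, Tnf, Nfkbia and Cxcl10 in each of the 16 libraries, as bars from 0, ordered by replicate within the untreated controls (grey), the insulin-treated controls (blue) and ieIRKO-STAM-INS (orange). The first blue bar, Control-STAM-INS replicate 1, is the highest bar in all 5 panels.

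Ccl6 was at 145, 157, 127 and 137 CPM in Control-STAM-nonINS. It was at 147 to 212 CPM (median 164) in the insulin-treated controls and at 129 to 198 CPM (median 155) in ieIRKO-STAM-INS. The groups overlapped, and the log2 fold change with insulin was 0.29 (SE 0.13, adjusted p = 0.169 in edgeR). Between the insulin-treated groups it was -0.10, with a 95% interval of -0.34 to 0.14.

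Ccl8, which is made by tissue macrophages and acts on CCR8 in the mouse, was the member that fell. It was at 1.67, 1.41, 1.68 and 2.97 CPM in the untreated controls, at 0.863 to 2.04 CPM (median 1.01) in the insulin-treated controls and at 0.272 to 1.11 CPM (median 0.892) in ieIRKO-STAM-INS. Every ieIRKO-STAM-INS library lay below every untreated control. Its log2 fold change was -1.24 (SE 0.35, adjusted p = 0.0259 in edgeR) in that comparison, -0.65 (SE 0.34, adjusted p = 0.242) with insulin and -0.59 (SE 0.33, adjusted p = 0.526) between the insulin-treated groups. Without Control-STAM-nonINS replicate 4 it was -0.94 and no longer passed (adjusted p = 0.102). With only those 2 groups in the fit, where 6.92% of all genes passed, it was -1.24 (adjusted p = 0.0568).

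That control library, replicate 4, also held the highest sum of 10 macrophage genes in its group, 402 CPM against 221 to 261 in the other 3, and the highest sum of 6 endothelial and lymphatic genes, 264 CPM against 110 to 150. The macrophage sums of ieIRKO-STAM-INS replicates 2 and 3 were higher still, 440 and 470 CPM, with Ccl8 at 1.08 and 1.11 CPM, below every untreated control. Of the 10 macrophage genes, 1 fell (Cd163, the haemoglobin scavenger receptor of resident macrophages) and none rose between ieIRKO-STAM-INS and the untreated controls, where 13.3% of all genes passed, with a median log2 fold change of 0.12. The part of macrophage content in the Ccl8 level was not tested. Ccl11, the eosinophil chemokine eotaxin, fell beside Ccl8 in that comparison, from 10.2 ± 2.7 to 4.34 ± 1.84 CPM (log2 fold change -1.24, SE 0.28, adjusted p = 0.00834 in edgeR). The Ccl8 receptor gene Ccr8 had at most 2 counts in any library. The Ccl6 receptor gene Ccr1 was at 7.22 ± 4.08, 5.19 ± 1.09 and 6.87 ± 1.42 CPM in the 3 groups and passed in no comparison.

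The follicle and T cell zone chemokines were highest in the same 2 libraries. Cxcl13 was at 11.2, 10.4, 8.05 and 11.5 CPM in Control-STAM-nonINS and at 2.87 to 7.11 CPM (median 5.06) in Control-STAM-INS. In ieIRKO-STAM-INS it was at 35.9 and 28.0 CPM in replicates 2 and 3 and at 3.19 to 8.72 CPM in the other 4. All 6 insulin-treated controls thus lay below all 4 untreated controls, with means of 5.12 ± 1.51 and 10.3 ± 1.5 CPM. In the fit of all 16 libraries this log2 fold change of -1.01 had an SE of 0.57 and did not pass (adjusted p = 0.288 in edgeR). It passed with only the 2 groups in the fit (-0.99, adjusted p = 0.00715) and, in an alternative added after the data were seen, with the 2 high ieIRKO-STAM-INS libraries left out of the fit (-0.99, adjusted p = 0.0168). In these fits 11.8% and 9.99% of all genes passed.

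Between the insulin-treated groups, the Cxcl13 log2 fold change was 1.50 (SE 0.52, unadjusted p = 0.0112 and adjusted p = 0.321 in edgeR). Against the untreated controls it was 0.50 (SE 0.56, adjusted p = 0.598) and turned to -0.82 (adjusted p = 0.0712) without replicates 2 and 3. The 4 remaining ieIRKO-STAM-INS libraries had a mean of 5.81 ± 2.28 CPM, beside 5.12 ± 1.51 CPM in Control-STAM-INS.

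Ccl19 was near the limit of detection outside the same 2 libraries. It was at 9.37 and 5.30 CPM in ieIRKO-STAM-INS replicates 2 and 3 (139 and 86 counts) and at no more than 0.743 CPM (17 counts) in the other 14. The lower of the 2 was 7.12-fold above the highest of the 14. Exact two-sided permutation tests of mean log2 CPM gave p = 0.143 with insulin, p = 0.119 between the insulin-treated groups and p = 0.581 in the third comparison, unadjusted over the 3. The annotation holds 2 pseudogene copies of Ccl19, and how reads that match several places were counted is not stated, so its level is uncertain. Ccl21a, the other CCR7 ligand, was at 41.4 ± 1.9, 37.0 ± 6.0 and 54.3 ± 29.7 CPM in the 3 groups and may share reads with its near-identical copies. It was at 102 and 71.9 CPM in ieIRKO-STAM-INS replicates 2 and 3 and at 20.5 to 58.5 CPM in the rest of that group.

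The genes for the receptors of these chemokines were high in the same libraries. Cxcr5 was at 32.9 and 14.8 CPM in replicates 2 and 3 and at 0.299 to 2.51 CPM in the other 14. Ccr7 was at 11.5 and 8.01 CPM there and at most 1.36 CPM elsewhere, and Ccr6, which binds CCL20, was at 11.9 and 5.17 CPM and at most 1.14 CPM elsewhere. Cxcr4, the receptor of CXCL12, was at 38.1 and 22.0 CPM against 2.60 to 6.95 CPM. None of these 4 genes passed in any comparison. All 10 B cell genes had counts in every library, and with the 2 libraries in the fit 0 of 10 passed with insulin, 0 of 10 between the insulin-treated groups and 3 of 10 (Cd79a, Fcrla and Fcer2a, all higher) in the third comparison, where 10.5%, 0.223% and 13.3% of all genes passed. Without them 0 of 10 passed in the third comparison, where 8.32% of all genes did, and the median log2 fold change of the B cell genes went from 2.69 to 0.00051. The sum of 7 genes of follicular and reticular stroma was 112 and 85.5 CPM in the 2 libraries and 43.7 to 61.0 CPM in the other 14. The part of lymphoid tissue content in the Cxcl13 and Ccl19 levels was not tested.

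**Figure D4:**
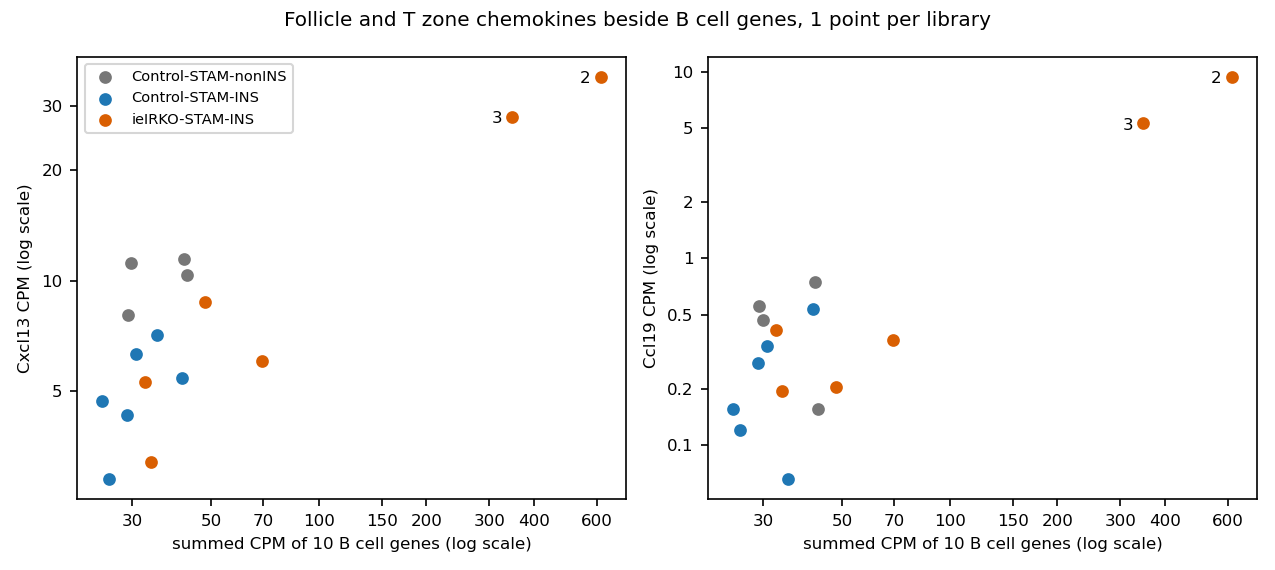
Cxcl13 (left) and Ccl19 (right) in CPM against the summed CPM of 10 B cell genes, all on log axes, with 1 point per library coloured by group. The points numbered 2 and 3 are ieIRKO-STAM-INS replicates 2 and 3, which lie apart at B cell sums of 616 and 348 CPM. The 4 untreated controls lie above the 6 insulin-treated controls for Cxcl13 and overlap them in B cell sum.

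Between the control groups, the Cxcl13 levels did not overlap while the B cell sums did, at 29.3 to 42.8 CPM in Control-STAM-nonINS and 24.8 to 41.5 CPM in Control-STAM-INS. In these 2 groups the B cell sum was mostly Cd79a and Cd79b, and of the 10 genes 7 had a log2 fold change below 0 with insulin and 3 above it (Fcrla at 0.55, Fcer2a at 0.40 and Cd79b at 0.04). Blk, a kinase of B cell receptor signalling, was at 1.29 to 2.67 CPM in the untreated controls and 0.628 to 1.19 CPM in the insulin-treated controls, with no overlap, while the other 9 B cell genes overlapped. This 1 of 10 is near the 10.6% of all tested genes that showed no overlap between these groups. Ms4a1, which encodes CD20, was at 2.41 ± 0.61 and 1.31 ± 0.56 CPM, with overlap. None of the 10 passed with all 16 libraries in the fit, where their median log2 fold change was -0.29 and the SE of Blk was 0.92. With only the 2 groups in the fit, none of the 9 tested B cell genes passed, with Blk at -0.92 (SE 0.30, adjusted p = 0.0612 in edgeR) and Ms4a1 at -0.87 (SE 0.31, adjusted p = 0.0808). The part of B cell content in the lower Cxcl13 level with insulin was not tested. Over the 16 libraries, the gene whose log2 CPM was most like that of Cxcl13 was Mfge8 (Pearson r = 0.97, Spearman rho = 0.95), a bridging protein for apoptotic cells that follicular dendritic cells are known to make. It was followed by the B cell gene Ms4a1 (r = 0.92, rho = 0.86). Mfge8 was at 104 to 133 CPM in the untreated controls, at 56.7 to 76.4 CPM in the insulin-treated controls, and at 298 and 241 CPM in ieIRKO-STAM-INS replicates 2 and 3, where Ms4a1 was at 80.3 and 37.4 CPM. These coefficients are descriptions over libraries that share the same scaling and hold 2 libraries far from the rest.

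Cxcl12, a stromal chemokine for CXCR4-bearing cells, was at 25.9, 24.8, 26.4 and 48.1 CPM in Control-STAM-nonINS. It was at 24.9 to 42.2 CPM (median 34.9) in the insulin-treated controls and at 24.2 to 53.8 CPM (median 32.4) in ieIRKO-STAM-INS. The groups overlapped, and the log2 fold change was 0.11 (95% interval -0.37 to 0.58) with insulin and 0.05 (-0.37 to 0.48) between the insulin-treated groups. The highest values were again in Control-STAM-nonINS replicate 4 and ieIRKO-STAM-INS replicate 2. Ackr3, the scavenger receptor of CXCL12, fell in ieIRKO-STAM-INS against the untreated controls, from 8.77 ± 1.86 to 5.70 ± 0.65 CPM (log2 fold change -0.63, SE 0.17, adjusted p = 0.0228 in edgeR). Without replicates 2 and 3 it was at -0.61 (adjusted p = 0.0535). All 6 endothelial and lymphatic genes had a log2 fold change below 0 in that comparison (median -0.47), of which 2 (Flt4 and Lyve1) fell, where 13.3% of all genes passed. Without replicates 2 and 3, where 8.32% of all genes passed, 1 fell (Flt4). The sums of the 6 genes were at 110 to 264 CPM in the untreated controls and 104 to 139 CPM in ieIRKO-STAM-INS. Their part in the Ackr3 level was not tested.

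Of the interferon-induced chemokines, Cxcl9 rose in ieIRKO-STAM-INS against the untreated controls and Cxcl10 passed in no comparison. Cxcl9 was at 2.88, 3.14, 2.85 and 2.45 CPM in Control-STAM-nonINS and at 3.53 to 6.35 CPM (median 4.77) in Control-STAM-INS, above all 4. In ieIRKO-STAM-INS it spread from 1.84 CPM in replicate 1, below every untreated control, to 10.7 CPM in replicate 5, with a median of 5.84. It rose 2.16-fold in ieIRKO-STAM-INS against the untreated controls (log2 fold change 1.11, SE 0.33, adjusted p = 0.0346 in edgeR), with 5 of 6 libraries above all controls. With insulin in the control genotype the log2 fold change was 0.75 (SE 0.33, adjusted p = 0.163), and it was 0.76 and passed with only the 2 groups in the fit (adjusted p = 0.0202). Between the insulin-treated groups it was 0.36 (95% interval -0.23 to 0.96).

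The call in the third comparison rested on many of its libraries. It was lost when any 1 of the 4 untreated controls or of ieIRKO-STAM-INS replicates 3, 5 and 6 was left out, with adjusted p-values of 0.0502 to 0.0856. Over all fits with 1 library of these groups left out, including those that kept the call, the log2 fold change stayed between 0.88 and 1.30. It was also lost without ieIRKO-STAM-INS replicates 2 and 3 (1.03, adjusted p = 0.0880) and with only the 2 groups in the fit (1.11, adjusted p = 0.104).

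Cxcl10 was at 1.61, 1.25, 1.12 and 0.787 CPM in the untreated controls, at 1.18 to 8.19 CPM (median 2.05) in the insulin-treated controls and at 1.09 to 5.45 CPM (median 2.53) in ieIRKO-STAM-INS. The groups overlapped, and the highest value was in the library with the high Ccl20. The log2 fold change was 1.34 (SE 0.55, adjusted p = 0.132 in edgeR) with insulin, 1.31 (SE 0.55, adjusted p = 0.120) in the third comparison and -0.02 (95% interval -0.96 to 0.92) between the insulin-treated groups. Without Control-STAM-INS replicate 1, the value with insulin was 0.67 (adjusted p = 0.334) and that between the insulin-treated groups 0.64 (adjusted p = 0.612).

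Cxcl9 and Cxcl10 lie 18558 bases apart on chromosome 5 (GENCODE annotation of GRCm38), and Cxcl11 is the third ligand of CXCR3. Cxcl11 fell from 2.91 ± 0.16 to 1.64 ± 0.52 CPM with insulin (log2 fold change -0.82, SE 0.23, adjusted p = 0.0277 in edgeR) and was at 1.32 ± 0.21 CPM in ieIRKO-STAM-INS (log2 fold change -1.13 against the untreated controls, adjusted p = 0.00396). Cxcr3, the gene of their shared receptor, was at 0.670 ± 0.416, 1.28 ± 0.20 and 1.13 ± 0.46 CPM and passed in no comparison.

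Most other genes of the interferon-gamma response did not pass. Of 11 tested, 2 rose with insulin (Irf1 and Gbp2) and none fell, where 10.5% of all genes passed, with a median log2 fold change of 0.36. In the third comparison 4 rose (Irf1, Gbp2, Gbp5 and Ciita) and 1 fell (Ifngr1, which encodes a chain of the receptor), where 13.3% of all genes passed, with a median of 0.46, and between the insulin-treated groups none passed. Without ieIRKO-STAM-INS replicates 2 and 3, 3 of 11 rose (Irf1, Gbp2 and Ciita) and none fell, where 8.32% of all genes passed. Ciita, the transactivator of MHC class II genes, which B cells also express, was at 61.5 and 50.8 CPM in those 2 libraries of high B cell sum and at 21.2 ± 3.2 CPM in the other 4, beside 14.4 ± 2.8 CPM in the untreated controls. Its log2 fold change was 1.18 with them (adjusted p = 0.0257 in edgeR) and 0.55 without (adjusted p = 0.0286). With only the 2 groups of the third comparison in the fit, where 6.92% of all genes passed, Irf1 and Gbp2 rose, and Ciita, Gbp5 and Ifngr1 did not pass. Irf1, a transcription factor of the response, was at 101 ± 15 CPM in Control-STAM-nonINS and 177 ± 38 CPM in Control-STAM-INS (log2 fold change 0.81, SE 0.15, adjusted p = 0.00262 in edgeR). The genes most like Cxcl9 over the 16 libraries were Psmb10 (Pearson r = 0.89, Spearman rho = 0.88), a subunit of the immunoproteasome, and Gpr55 (r = 0.89, rho = 0.86). Those most like Cxcl10 were Il15ra (r = 0.80, rho = 0.73), which presents interleukin-15, and Abt1 (r = 0.80, rho = 0.86).

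Some markers of T cells rose against the untreated controls. Of 8 T cell genes, 3 rose with insulin and none fell (Cd3e, Cd3g and Cd8a; median log2 fold change 1.16), where 10.5% of all genes passed, while Cd4 was at -0.20 (adjusted p = 0.673 in edgeR). In the third comparison 6 rose (Cd3d, Cd3e, Cd3g, Cd8a, Lck and Cd5; median 1.87), where 13.3% of all genes passed, and none passed between the insulin-treated groups. Without ieIRKO-STAM-INS replicates 2 and 3, 5 of 7 tested T cell genes rose in the third comparison (median 1.25), where 8.32% of all genes passed, and Cd5 did not pass (0.98, adjusted p = 0.220 in edgeR). The log2 fold change of Lck, which was at 22.8 and 16.5 CPM in those 2 libraries and 3.54 to 9.28 CPM in the other 4, went from 1.89 to 0.98 (adjusted p = 0.0469). Their sum was 16.4 to 28.4 CPM in the untreated controls, 27.6 to 47.0 CPM in the insulin-treated controls and 28.3 to 49.6 CPM in ieIRKO-STAM-INS other than replicates 2 and 3, which were at 85.8 and 80.5 CPM, all 8 having counts in every library. The part of T cell content in the Cxcl9 level was not tested.

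**Figure D5:**
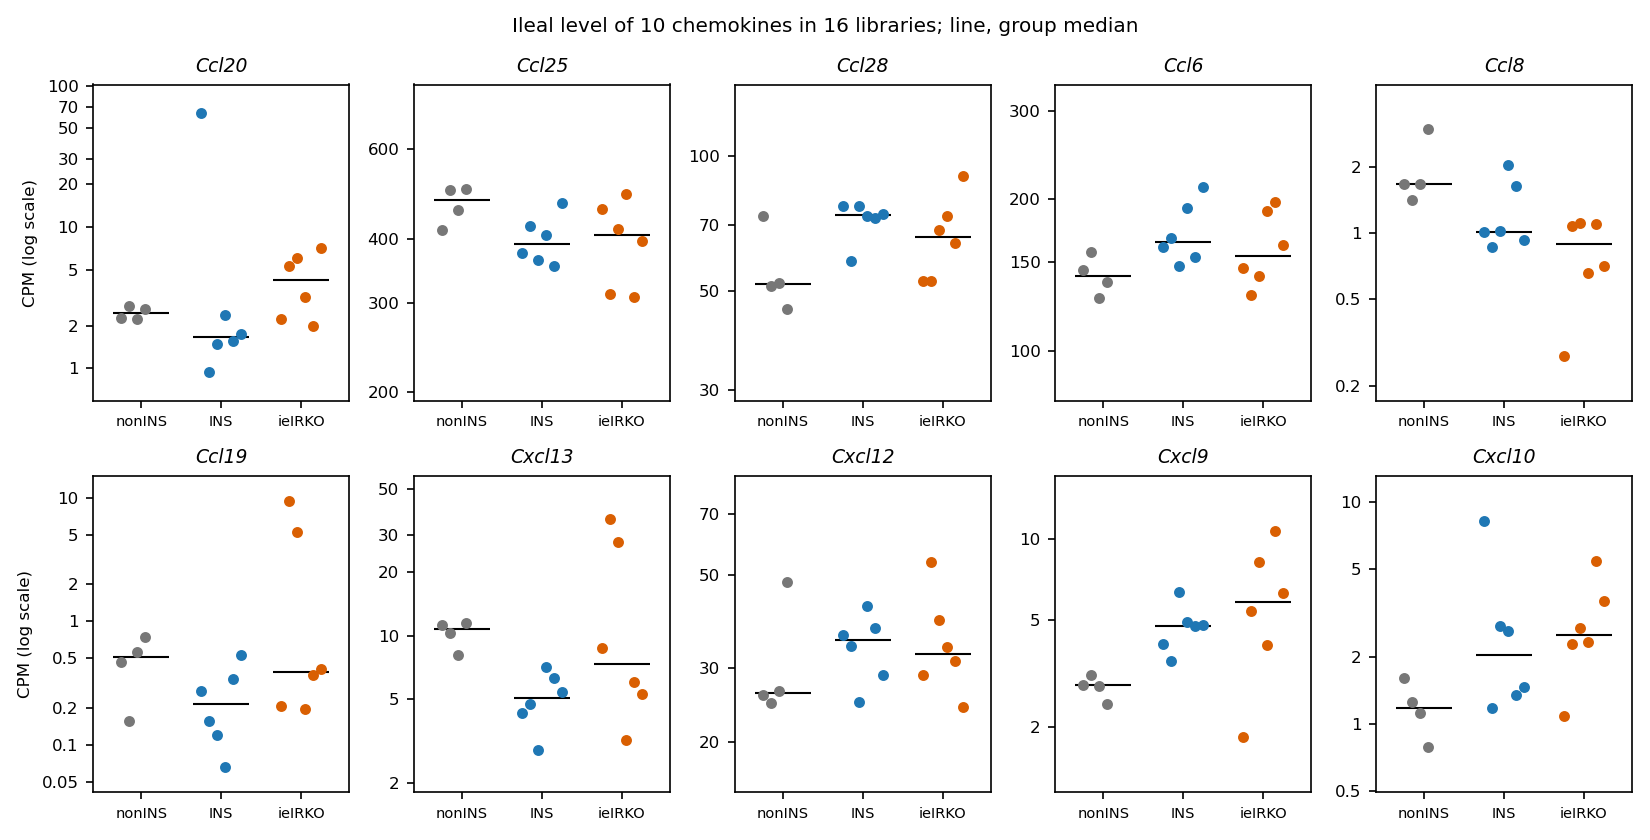
CPM of each of the 10 chemokines in every library, on log axes with a range of their own, by group, with the group median as a line. Single libraries stand far above the rest for Ccl20 (63.6 CPM) and pairs of libraries for Ccl19 and Cxcl13. The Control-STAM-INS points lie below the Control-STAM-nonINS points for Cxcl13 and above them for Cxcl9.

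For the other members, the genes most like them over the libraries were of other kinds. Tnfaip3 followed Ccl20 by Pearson r (0.79) but not by rank (rho = 0.26), and Recql5 came after it (r = 0.72, rho = 0.52). Hadh, a mitochondrial enzyme of fatty acid oxidation, followed Ccl25 (r = 0.92, rho = 0.88), and Fam20a came after it (r = 0.90, rho = 0.86). Aph1a and Tm2d2 followed Ccl28 (r = 0.83 and 0.82), Fcgbp, a mucus protein of goblet cells, and Fibp followed Ccl6 (r = 0.84 and 0.79), Dennd2a and Selenon followed Ccl8 (both r = 0.88), and Gatm and Trpm2 followed Cxcl12 (r = 0.89 and 0.88). All of these were the 2 highest of 11082 genes compared with each member.

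Among the rest of the chemokine system, calls were made with insulin and in the third comparison, in which 10.5% and 13.3% of all genes passed. With lists this short, a single call in 10 genes is near that background. Of 8 other CC chemokines tested, none passed with insulin, and Ccl22 rose (1.89 on the log2 scale, adjusted p = 0.0180 in edgeR) while Ccl11 fell in the third comparison. Without ieIRKO-STAM-INS replicates 2 and 3, Ccl22 was at 1.45 (adjusted p = 0.0721), and with only the 2 groups in the fit at 1.88 (adjusted p = 0.0809). With insulin the Ccl22 libraries did not overlap, at 0.469 to 1.57 CPM in the untreated controls and 1.98 to 2.99 CPM in the insulin-treated controls, where 10.6% of all genes showed no overlap. With only these 2 groups in the fit Ccl22 rose (1.37, adjusted p = 0.0185), against 1.35 (adjusted p = 0.0865) with all libraries. Of 6 other CXC, CX3C and XC chemokines, 2 rose with insulin (Cxcl14 and Xcl1) and 2 fell (Cxcl11 and Cxcl16). In the third comparison Cxcl11 and Cxcl16 fell, and Cxcl16 no longer passed without those replicates (-0.44, adjusted p = 0.110), where Xcl1 rose, or with only the 2 groups in the fit (-0.46, adjusted p = 0.0648). Of 10 tested genes listed as receptors of the members, Ccr2 rose with insulin (1.16, adjusted p = 0.0159 in edgeR), and Ccr2, Ccr9 and Ccr10 rose in the third comparison. Ccr2 encodes the receptor of inflammatory monocytes and is paired with no member above. The median log2 fold change of these receptors was -0.18, 0.45 and 1.18 in the 3 comparisons, beside -0.0043, 0.02 and 0.0088 over all genes. The last 2 of these medians rested on replicates 2 and 3, in which Cxcr5, Ccr6, Ccr7 and Cxcr4 were high, and went to 0.091 and -0.0095 without them, with Ccr2 and Ccr10 then called in the third comparison. Of 5 atypical receptors, Ackr1 fell with insulin (-0.82, adjusted p = 0.0368 in edgeR). All 6 endothelial and lymphatic genes were also below 0 there (median -0.52), of which Cdh5 fell, and their part in the Ackr1 level was not tested. Of 4 other receptors, Xcr1 of cross-presenting dendritic cells rose with insulin (1.62, adjusted p = 0.00632 in edgeR), and Xcr1 and Ccr4 rose in the third comparison.

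Of 10 organisers of lymphoid tissue, 1 passed with all 16 libraries in the fit, beside 10.5% of all genes with insulin and 13.3% in the third comparison. It was Tnfsf13b, which encodes the B cell survival factor BAFF. It rose from 4.68 ± 1.26 to 10.6 ± 3.0 CPM with insulin (log2 fold change 1.19, SE 0.22, adjusted p = 0.00278 in edgeR) and to 8.36 ± 1.84 CPM in ieIRKO-STAM-INS (0.84, adjusted p = 0.0187). The gene of the BAFF receptor on B cells, Tnfrsf13c, was lower with insulin without overlap, as Cxcl13 was, at 2.01 to 2.88 CPM in the untreated controls and 0.537 to 1.22 CPM in the insulin-treated controls. Its log2 fold change of -1.30 had an SE of 0.92 with all libraries in the fit (adjusted p = 0.410 in edgeR), and it was at 30.3 and 18.1 CPM in ieIRKO-STAM-INS replicates 2 and 3. Tnfrsf13c fell with only the 2 control groups in the fit (-1.29, SE 0.26, adjusted p = 0.00657) and without those replicates (-1.29, adjusted p = 0.0141). In these fits 11.8% and 9.99% of all genes passed. With only the 2 control groups, 8 organisers were tested, and Tnfrsf11a rose beside Tnfsf13b. Tnfrsf11a had means of 51.7 CPM in the untreated controls and 67.8 CPM in the insulin-treated controls. Of the 10 organisers, 2 were higher with insulin without overlap (Tnfrsf11a and Tnfsf13b) and 1 lower, where 10.6% of all genes showed no overlap. Across these lists of chemokines, receptors and organisers, no gene passed between the insulin-treated groups.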

How the data were processed

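Total RNA of the whole ileal wall was sequenced from 16 mice, 1 library each. The authors counted reads per gene on GRCm38 with CLC Genomics Workbench 21.0.3 and deposited raw counts for each mouse. The use of strand and of reads matching several places is not given in the sources used here. All 16 libraries were grouped by their labels.

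Counts were analysed with edgeR 4.0.16 (R 4.3.3). Genes were kept by filterByExpr (minimum count 10, minimum total 15), scaled by TMM and fitted by the quasi-likelihood model over the 3 groups, with Benjamini-Hochberg adjustment over all 15267 genes and a threshold of 0.05. CPM use the TMM library sizes, and log2 CPM add a prior count of 2. Exact permutation tests were two-sided, and 4 against 6 libraries allow no p below 0.00952. Exon lengths came from GENCODE M21 and promoters from RefSeq (GRCm38.p6), which matched all 10 members. The fit was tested on simulated data. DESeq2 1.42.0, other scalings, filters, sample sets, lengths and rankings were tried as alternatives. Named beyond the members were the 2 genes (mean CPM of at least 5, no predicted or immunoglobulin gene) with the highest Pearson r for each tested member, the receptors of a member described, and list genes that passed.

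The members and lists were chosen with earlier results of these data known. A gene of the interferon-gamma list is not reported here. Same-numbered libraries did not deviate together in every pair, so the numbers were not taken as pairs.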

Additional observations from a re-analysis of the deposited data

Results flagged for a closer look

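Of 30 sets of values (10 chemokines in 3 groups, on the log2 CPM scale), 3 held a library whose gap to its nearest neighbour was a large part of the whole range of the group, where about 1.5 would be met by chance. Ccl20 in Control-STAM-INS replicate 1 (63.6 CPM, the others at most 2.37) had a gap of 0.792 of the range. Ccl28 in Control-STAM-INS replicate 2, the lowest at 58.1 CPM, had a gap of 0.775 of the range. Cxcl12 in Control-STAM-nonINS replicate 4, the highest at 48.1 CPM, had a gap of 0.905 of the range. The paired high values of Cxcl13 and Ccl19 in ieIRKO-STAM-INS replicates 2 and 3 lie close to each other, which this measure does not pick up.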

How the results depend on the processing

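The 2 calls against the untreated controls held under DESeq2, upper-quartile and RLE scaling and without a filter. With at least 10 counts in every library 1 member was called, since Ccl8 no longer passed the filter, and with only the 2 groups in the fit 0 members were. Without ieIRKO-STAM-INS replicates 2 and 3, 1 member was called (Ccl8). With insulin in the controls, 2 members (Cxcl13 and Cxcl9) passed with only those 2 groups in the fit, and 1 (Cxcl13) without those replicates. Counts over all genes were 123 for the genotype under DESeq2, and, for ieIRKO-STAM-INS against the untreated controls, 1038 with only the 2 groups and 1270 without replicates 2 and 3. Leaving out 1 library at a time gave 824 to 1877 genes with insulin, 29 to 50 for the genotype and 1093 to 2274 for ieIRKO-STAM-INS against the untreated controls, with 0 to 1, 0 and 0 to 2 members. The lowest counts, 824 and 1093, came without Control-STAM-nonINS replicate 1.

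Signs turned mainly where values lay near 0 or 1 or 2 libraries stood apart. Between the insulin-treated groups, the log2 fold change of Cxcl10 was 0.00061 with upper-quartile scaling. Without ieIRKO-STAM-INS replicates 2 and 3, it was 0.063 for Cxcl10, 0.040 for Ccl25, 0.0045 for Ccl6 and -0.21 for Cxcl12, and against the untreated controls it was -0.82 for Cxcl13 and -0.089 for Cxcl12. With 1 library left out, it ran from -0.59 to 2.53 for Ccl20 with insulin, and between the insulin-treated groups from -1.73 to 1.39 for Ccl20, -0.31 to 0.64 for Cxcl10, -0.079 to 0.052 for Ccl25 and -0.11 to 0.14 for Cxcl12. DESeq2 gave no adjusted p for Ccl20. Ccl19 had no fit to vary.

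With the replicate number as a block, 1 member (Ccl8) was called against the untreated controls, Cxcl9 was at 0.82 (adjusted p = 0.109), and between the insulin-treated groups Ccl20 turned to 0.24 and Cxcl10 to 0.19. Same-numbered libraries correlated between -0.09 and 0.18 in their deviations from the group means, so the block has no basis in the design. With Spearman rho in place of Pearson r, 4 of the 18 genes named as most like a member remained. Ccl8, Cxcl10 and Ccl19 are limited by low counts. Of the gene lists against the untreated controls, the 3 B cell calls went to 0 without ieIRKO-STAM-INS replicates 2 and 3 and with only the 2 groups in the fit. With only the 2 groups, where 6.92% of all genes passed, 2 interferon-gamma response genes, 4 T cell genes and 1 gene of the receptor list (Ccr2) rose. With insulin, 5 of 7 T cell genes and 3 of 11 interferon-gamma response genes rose in either of these fits, where 9.99% and 11.8% of all genes passed.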
